A study of Mus musculus with 4 samples.

Results

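The regulators described here were 8 homeodomain factors and their partners that act in muscle precursors, namely Six2, Six4, Six5, Eya1, Eya2, Eya3, Eya4 and Pitx3. They were chosen by gene symbol, and all 8 were found among the 24445 genes of the deposited table. RNA of primary myoblasts was compared between wild type (WT) mice and mice lacking functional Tet2 (Tet2 KO), with 2 libraries in each group and C57BL/6 as the strain of both. The mice were young adult males unless stated otherwise, per the study's methods, and the Tet2 KO allele was a constitutive deletion of an exon, so every cell of these animals carried it. Muscle stem cells (satellite cells) of the hindlimb were isolated by sorting as CD34+ Integrin a7+ cells that lacked CD45, CD11b, CD31 and Sca1, and were grown on collagen for at least 3 days until they had become MyoD+ myoblasts. Whether the libraries of a group came from separate animals was not stated.

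Each gene had 1 value for each group, in FPKM (fragments scaled to the length of the transcript in kilobases and to the mapped fragments in units of 1000000). Because each value pools the libraries of a group, no standard deviation stands beside the values below and no test was run on them. The p-values of the authors' own comparison were not used. The spread between libraries of the same group is therefore not part of any value. A gene was counted as measured at a mean FPKM of at least 1 over both groups, which 11692 genes reached. The difference of a gene is log2((Tet2 KO FPKM + 1) / (WT FPKM + 1)), and a difference of at least 1.5-fold on this scale is called past the fold. This scale understates the difference of genes with low values, so the plain ratio of FPKM is also given.

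The sine oculis family, to which Six2, Six4 and Six5 belong, holds homeodomain transcription factors that bind a DNA element known as MEF3 and switch on genes of the myogenic programme, myogenin among them. Eya proteins do not bind DNA themselves; they join these factors as coactivators and also carry a protein phosphatase domain, while Dach, Ski and Tle proteins act as corepressors in the same network. Pitx3, a paired-type homeodomain factor best known from lens and midbrain dopamine neurons, is also expressed throughout skeletal muscle differentiation.

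The promoter windows of these genes are shown because Tet2 acts on cytosines of CG dinucleotides, and because MEF3 elements and E-boxes are the letters that the sine oculis family and MyoD bind. In the RefSeq sequences of build GRCm38.p6, 6 of the 8 genes had a window from 250 bases before to 50 bases after a transcript start, in 8 windows in all; Eya1 and Eya2 had none. The 8 windows held between 15 and 37 CG dinucleotides, above the median of 7 over 32851 windows of the same length. The window with the most, that of Six2, held more CG dinucleotides than 94.4% of all windows. The letters TCAGGTTTC (MEF3), read on both strands, occurred in 1 of the 8 windows, that of the first annotated start of Six4, at 99 bases before the start, whereas 0.429% of all windows hold them. The E-box CAGCTG, a palindrome, occurred in 1 of the 8 windows, that of Pitx3, at 180 bases before the start, and in 16.3% of all windows. Any E-box of the form CANNTG, which includes CAGCTG, occurred in 4 of the 8 windows and in 72.3% of all windows. The 2 windows of Eya4 overlap and hold the same E-box, which is thus counted in both. The 2 windows of Six4 overlap as well. Such a match describes letters, not a bound site. In the first 2 sequences capitals mark the MEF3 letters and the E-box CAGCTG. The Pitx3 window holds 2 matches of CANNTG, of which only CAGCTG is marked. In the third sequence, shown for the gene of the abundant Eya members that differed most between the groups, capitals mark CG dinucleotides. Of the 2 Eya4 windows, the one shown holds 36 CG dinucleotides and the other 28. All 3 sequences are on the minus strand and are written in the direction of transcription.
Six4, chr12:73113196-73113495: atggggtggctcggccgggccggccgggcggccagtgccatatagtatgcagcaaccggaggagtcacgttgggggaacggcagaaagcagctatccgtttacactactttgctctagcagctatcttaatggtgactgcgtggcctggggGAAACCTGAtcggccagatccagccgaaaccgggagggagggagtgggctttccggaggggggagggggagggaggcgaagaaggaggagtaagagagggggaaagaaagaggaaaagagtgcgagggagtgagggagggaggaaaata
Pitx3, chr19:46148276-46148575: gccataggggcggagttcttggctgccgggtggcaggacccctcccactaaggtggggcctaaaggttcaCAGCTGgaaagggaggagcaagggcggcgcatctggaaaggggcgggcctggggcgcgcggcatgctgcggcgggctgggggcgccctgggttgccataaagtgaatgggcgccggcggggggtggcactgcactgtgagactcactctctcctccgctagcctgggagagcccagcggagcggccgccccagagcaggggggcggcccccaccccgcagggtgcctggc
Eya4, chr10:23349894-23350193: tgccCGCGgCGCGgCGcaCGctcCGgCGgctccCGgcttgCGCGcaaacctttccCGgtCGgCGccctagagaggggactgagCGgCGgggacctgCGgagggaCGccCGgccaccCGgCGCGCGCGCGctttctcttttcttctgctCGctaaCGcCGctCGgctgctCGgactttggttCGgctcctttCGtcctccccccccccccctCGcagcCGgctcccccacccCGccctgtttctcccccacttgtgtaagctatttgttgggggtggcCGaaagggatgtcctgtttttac

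None of the 8 regulators was past the fold in either direction, with Eya2 lying just inside it. All 8 were measured. In all measured genes the share past the fold was 6.61%, with 3.72% higher and 2.89% lower in Tet2 KO. The values of 6 regulators were lower in Tet2 KO and those of 2, Six2 and Pitx3, were higher. Their median difference was -0.11 on the log2(FPKM + 1) scale, against a median of -0.0044 over all measured genes, of which 51.2% were lower. The differences ran from -0.58 for Eya2 to 0.37 for Six2.

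The order of the levels was the same in both groups. From high to low it ran Pitx3, Six4, Eya3, Eya4, Eya1, Six2, Eya2 and Six5. The highest level was 39.8 times the lowest in Tet2 KO and 27.3 times in WT. Some neighbours in this order lay close together: in Tet2 KO the level of Eya1 was 1.11 times that of Six2, in WT the level of Six2 was 1.07 times that of Eya2, and in WT the level of Eya3 was 1.17 times that of Eya4. Without values per library it cannot be said which neighbours differ beyond the spread of their libraries.

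**Figure D1:**
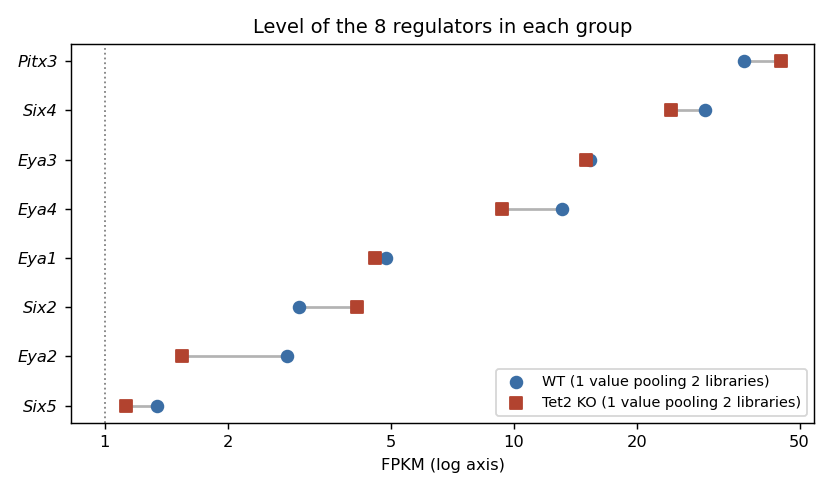
FPKM (log axis) of the 8 regulators, with WT as blue circles and Tet2 KO as red squares, each 1 pooled value of 2 libraries; the dotted line marks 1 FPKM. Levels run from 44.9 FPKM for Pitx3 to 1.13 FPKM for Six5 in Tet2 KO, and the gap between the groups is widest for Eya2.

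The number of fragments behind these values could be estimated. In genes with 1 annotated transcript longer than 1500 bases, the lowest values fell on steps: 89.3% of the values under 4.5 steps in Tet2 KO and 88.6% in WT lay within 0.2 of a whole step, where values spread evenly would give 40%. One step, taken as 1 fragment, was worth 0.0195 FPKM times kilobases in Tet2 KO and 0.0194 in WT. It was the median of the values in a fixed range around the first step. Those values, 245 of the 568 scored in Tet2 KO and 277 of the 656 in WT, were scored as well. With the longest annotated coding transcript as the length, the regulators then rested on about 165 fragments (Six5, Tet2 KO) to about 8454 fragments (Six4, WT). The intervals below are exact (Clopper-Pearson) 95% intervals of the plain ratio computed from these estimated fragments. They cover counting error only, not the spread between animals. A shorter transcript as the length would give fewer fragments and wider intervals.

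Among the DNA-binding Six2, Six4 and Six5, Six4 was the most abundant of the 3. Six4 lies on the minus strand of chromosome 12 of mm9 from 74201246 to 74214232, and its longest annotated transcript has 3 exons. It had 29.4 FPKM in WT against 24.3 FPKM in Tet2 KO, a difference of -0.27. The Tet2 KO level was 82.5% of the WT level, with a counting interval from 79.9% to 85.1%. Among all measured genes 18.1% differed at least as much in either direction. Genes within a factor of 2 of the mean FPKM of Six4 numbered 4161. The 5th to 95th percentiles of their differences ran from -0.32 to 0.24, and Six4 lay within them.

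Six2, best known from kidney progenitors, was the regulator with the largest positive difference. It lies on the minus strand of chromosome 17 from 86083608 to 86087594, with 2 exons. It had 2.98 FPKM in WT against 4.14 FPKM in Tet2 KO, a difference of 0.37. The Tet2 KO level was 139% of the WT level, with a counting interval from 120% to 161%. That difference was within the central range of genes of like level: of 2891 genes with a mean FPKM within a factor of 2 of that of Six2, the 5th to 95th percentiles of the difference ran from -0.52 to 0.83.

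Six5, the gene next to the myotonic dystrophy kinase gene Dmpk, was the lowest of the 8. It lies on the plus strand of chromosome 7 from 19679893 to 19683694, with 3 exons. It had 1.34 FPKM in WT against 1.13 FPKM in Tet2 KO, a difference of -0.14. Its counting interval, from 68.0% to 104% of the WT level, included equal levels.

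The 4 Eya coactivators did not share 1 pattern, since Eya2 and Eya4 had lower values in Tet2 KO and Eya1 and Eya3 had nearly the same value in both groups. Eya2 lies on the plus strand of chromosome 2 from 165420528 to 165597227, with 16 exons in its longest coding transcript. It had 2.80 FPKM in WT against 1.54 FPKM in Tet2 KO, a difference of -0.578 on the log2(FPKM + 1) scale, where 1.5-fold corresponds to 0.585. By the plain ratio the Tet2 KO level was 55.2% of the WT level, with a counting interval from 46.2% to 66.1% on about 195 fragments in Tet2 KO and 354 in WT. The call of Eya2 depended on the scale. It was past the fold at a pseudocount of 0.1, with a difference of -0.82, where 3.83% of all measured genes were past the fold and lower. Without a pseudocount its difference was -0.86, and the share was 4.01%. With FPKM rescaled to TPM (each group summing to 1000000 over all genes) and a pseudocount of 1 its difference was -0.67, and the share was 3.25%. FPKM summed to 565529 in Tet2 KO and 566910 in WT, so TPM values are larger and the same pseudocount weighs less.

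Eya4, known for its part in hearing and heart muscle, lies on the minus strand of chromosome 10 from 22822768 to 23069749, with 19 exons. It had 13.1 FPKM in WT against 9.37 FPKM in Tet2 KO, a difference of -0.44. The Tet2 KO level was 71.5% of the WT level, with a counting interval from 67.4% to 75.8%. Of all measured genes, 9.30% differed at least as much. Eya4 lay below the 5th percentile, -0.37, of 4433 genes of like level, and Eya2 lay below that of 2363 genes of its own like level, -0.56.

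Eya3 was the most abundant Eya gene. It lies on the plus strand of chromosome 4 from 132194961 to 132280680, with 18 exons. It had 15.4 FPKM in WT against 15.0 FPKM in Tet2 KO, a difference of -0.03 that 83.7% of measured genes matched or exceeded. The counting interval ran from 93.7% to 102% of the WT level. Eya1, mutated in branchio-oto-renal syndrome, lies on the minus strand of chromosome 1 from 14159039 to 14300280, with 18 exons. It had 4.88 FPKM in WT against 4.59 FPKM in Tet2 KO, a difference of -0.07 with a counting interval from 86.3% to 103% of the WT level.

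**Figure D2:**
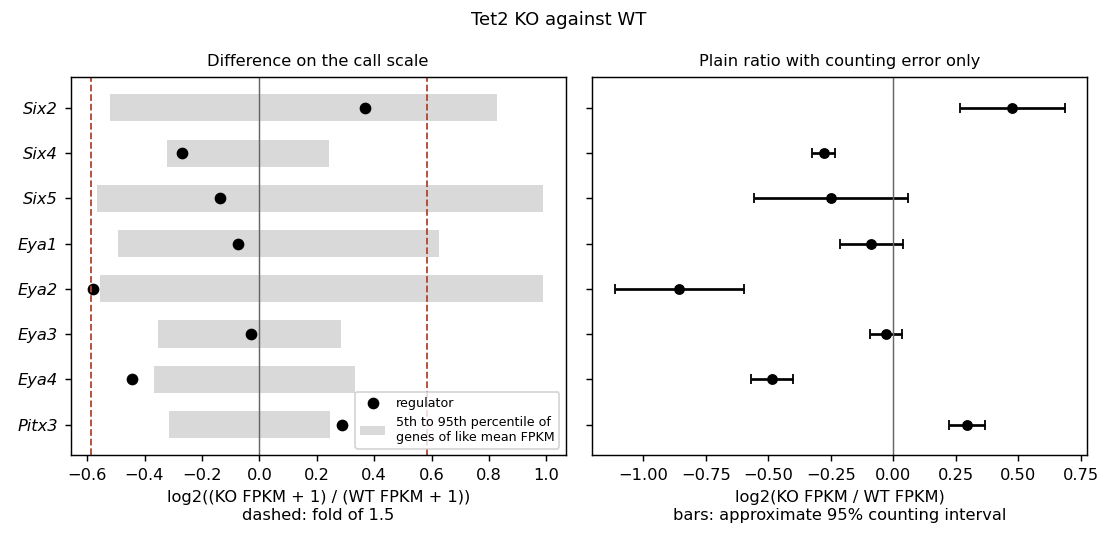
Left, difference of each regulator on the log2(FPKM + 1) scale (black points) over the 5th to 95th percentile of genes within a factor of 2 of its mean FPKM (grey bars), with dashed lines at a fold of 1.5. Right, plain log2 ratio of Tet2 KO over WT FPKM with approximate 95% counting intervals. The intervals of Six2 and Pitx3 lie above 0 and those of Six4, Eya2 and Eya4 below it. The intervals of Six5, Eya1 and Eya3 include 0.

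Because FPKM is per length, the 4 Eya levels can be added. Their sum was 36.1 FPKM in WT against 30.5 FPKM in Tet2 KO, so the sum in Tet2 KO was 84.5% of that in WT. Most of the gap came from Eya4. Eya3 made up 49.2% of the sum in Tet2 KO and 42.5% in WT, and Eya4 made up 30.7% in Tet2 KO and 36.3% in WT. In the same order of groups, Eya1 made up 15.0% and 13.5%, and Eya2 made up 5.05% and 7.74%. The Eya sum was 1.26 times the Six4 level in Tet2 KO and 1.23 times in WT, as both were lower in Tet2 KO to a like extent.

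**Figure D3:**
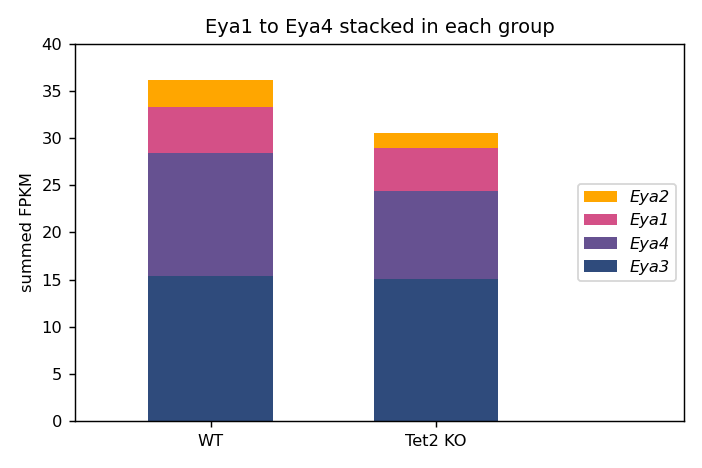
Summed FPKM of the Eya genes in WT and Tet2 KO (1 pooled value of 2 libraries per gene and group, bars from 0). The sum is 36.1 FPKM in WT and 30.5 FPKM in Tet2 KO; the Eya3 segments are of nearly equal height and the Eya4 segment is shorter in Tet2 KO.

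Pitx3 was the most abundant of the 8 regulators and exceeded 79.8% of the measured genes in mean level. It had 36.7 FPKM in WT against 44.9 FPKM in Tet2 KO, a difference of 0.29. The Tet2 KO level was 123% of the WT level, with a counting interval from 117% to 129%, and 16.5% of measured genes differed at least as much. The difference lay above the 95th percentile, 0.25, of 3331 genes of like level. The table places Pitx3 on chromosome 19 in a span from 46206389 to 46222815 that it shares with Elovl3, a fatty acid elongase gene. In the GENCODE vM1 annotation of the same build Pitx3 is on the minus strand, with 4 exons in its longest coding transcript, and Elovl3 is on the opposite strand. Exons of Elovl3 and of the longest coding transcript of Pitx3 share 10 bases, 0.70% of that transcript. Elovl3 had 4.06 FPKM in WT against 4.63 FPKM in Tet2 KO. For the other 7 regulators, no exon of the longest coding transcript was shared with another annotated gene. Exons of their other transcripts were not examined.

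Genes beside the regulators on the chromosome were examined next, since position was not used to choose them. With genes of the sine oculis and Pitx families left out, the nearest rows before and after the 8 genes were 19 rows, of which 10 were measured. Their median difference was 0.06, and 1 was past the fold, beside 6.61% of all measured genes in either direction. That gene was Ptafr, the receptor of platelet-activating factor, 56360 bases before Eya3, with 0.425 FPKM in WT against 1.64 FPKM in Tet2 KO. Ptafr reached the minimum through Tet2 KO alone. Mnat1, a subunit of the CDK-activating kinase 10472 bases from Six4, had 31.1 FPKM in WT against 26.4 FPKM in Tet2 KO, a difference of -0.23 beside -0.27 for Six4. Dmpk, 724 bases before Six5, had 137 FPKM in WT against 114 FPKM in Tet2 KO, a difference of -0.26 beside -0.14 for Six5, and Fbxo46, on the other side of Six5, had a difference of -0.05. These 3 were the measured neighbours with lower values in Tet2 KO. Beside the regulators with higher values in Tet2 KO, Srbd1 next to Six2 had a difference of 0.21, and Nolc1 and Gbf1 on either side of Pitx3 had differences of 0.12 and 0.07. Beside regulators with lower values, Zmynd8 next to Eya2 had a difference of 0.04, Xkr8 next to Eya3 one of 0.03 and Rps12 next to Eya4 one of 0.07. Neither neighbour of Eya1 was measured.

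The other members of the network gave small differences. Of 12 genes listed as partners or relatives, 7 were measured. None of the 7 was past the fold, beside 6.61% of all measured genes in either direction. Their median difference was -0.03, from -0.18 for Tle2 to 0.17 for Tle1. The most abundant was Aes, a short Groucho-family protein, with 87.9 FPKM in WT against 85.8 FPKM in Tet2 KO. The corepressor genes Ski and Skil had 17.4 and 46.5 FPKM in Tet2 KO and 18.6 and 46.8 FPKM in WT. Dach1 and Dach2 were below 1 FPKM in both groups, so neither of these corepressor genes counted as measured.

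The listed myogenic regulators that act upstream of or beside the 8 genes lay in the same narrow band. Of 8 genes listed, 5 were measured, and their median difference was -0.10, close to that of the 8 regulators. They ran from -0.20 for Myf6 to -0.02 for Lbx1. The highest of the 5 was Myod1, with 336 FPKM in WT against 313 FPKM in Tet2 KO. Myog, also a myogenic regulator, was counted in the target list below instead. It had 554 FPKM in WT against 268 FPKM in Tet2 KO, a difference of -1.04, outside this band.

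Genes known as targets of the sine oculis family, together with fast muscle genes, differed more between the groups than the 3 lists above. Of 18 genes listed, 16 were measured, and 10 were past the fold, all 10 lower in Tet2 KO, beside 2.89% of all measured genes. The median difference of the 16 was -0.99, against -0.11 for the 8 regulators. Myog, which encodes myogenin, had 554 FPKM in WT against 268 FPKM in Tet2 KO. Myh1, a fast myosin heavy chain gene, had 77.1 FPKM in WT against 20.5 FPKM in Tet2 KO, and its difference of -1.86 was the largest of the list in size.

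The troponin genes of the list were also past the fold. Tnnt3 had 259 FPKM in WT against 98.8 FPKM in Tet2 KO, Tnni2 had 76.5 FPKM in WT against 33.4 FPKM in Tet2 KO, and Tnnc1 had 395 FPKM in WT against 162 FPKM in Tet2 KO. The remaining 5 past the fold were Atp2a1, Myl1, Myh2, Ckm and Pfkm, with differences from -1.29 to -0.71. Myh2, with 2.02 FPKM in WT against 0.258 FPKM in Tet2 KO, reached the minimum through WT alone; without it 9 of 15 were past the fold and the median was -0.93. Targets that are not specific to muscle fibres had smaller differences. Ezr had 33.1 FPKM in WT against 33.2 FPKM in Tet2 KO, and Ccnd1 had 218 FPKM in WT against 263 FPKM in Tet2 KO. Slc12a2, an ion cotransporter gene, had 16.0 FPKM in WT against 12.8 FPKM in Tet2 KO. Of the glycolytic genes not past the fold, Aldoa, whose muscle promoter carries a MEF3 element, had 998 FPKM in WT against 1009 FPKM in Tet2 KO, while the muscle enolase gene Eno3 had 503 FPKM in WT against 351 FPKM in Tet2 KO, a difference of -0.52. The study had itself examined muscle differentiation genes, Myog among them, in these libraries, so the count of the list is not independent evidence of its direction.

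**Figure D4:**
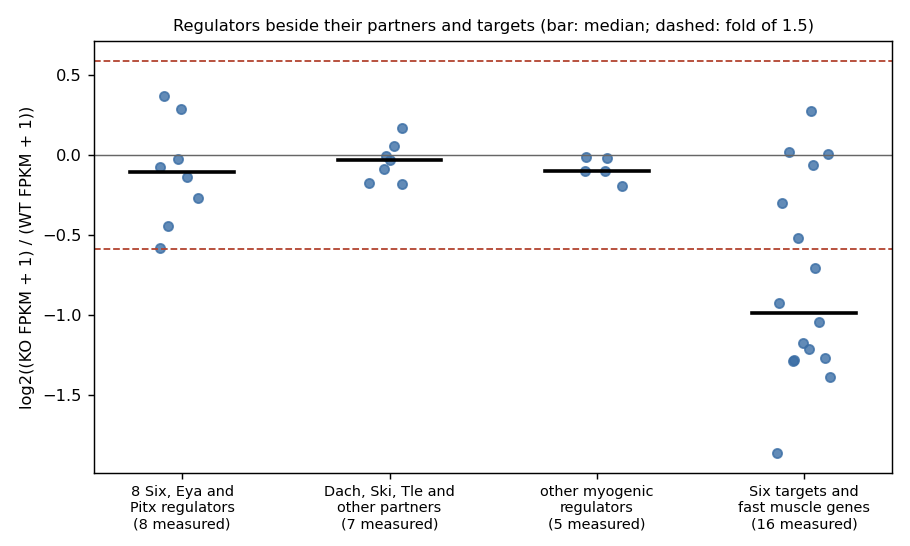
Difference on the log2(FPKM + 1) scale of each measured gene (points; horizontal scatter has no meaning) in 4 lists, with list medians as black bars and a fold of 1.5 as dashed lines. The 8 regulators, the 7 partners and the 5 other myogenic regulators lie between the dashed lines, and 10 of the 16 target and fast muscle genes lie below the lower one. Myog is plotted with the targets and is among these 10.

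The markers of the sorted cells were examined beside these values. For the counts below, 3.72% of all measured genes were past the fold and higher, and 2.89% were past it and lower. All 7 myoblast markers were measured, from 11.0 FPKM for Pax7 to 372 FPKM for Des in Tet2 KO, 1 of them, Ncam1, was past the fold and lower, and their summed level was 1233 FPKM in WT against 1078 FPKM in Tet2 KO. All 7 leukocyte markers were past the fold and higher in Tet2 KO, from 5.67 FPKM for Ptprc to 253 FPKM for Lyz2 in that group, with a summed level of 90.6 FPKM in WT against 368 FPKM in Tet2 KO, although the sort had removed CD45+ and CD11b+ cells; none of them was at 0 in either group. Of 6 fibroblast markers 5 were measured, all 5 with higher values in Tet2 KO and a median difference of 0.32, and 1, Dcn, was past the fold. Their summed level was 436 FPKM in WT against 471 FPKM in Tet2 KO, most of it from Ly6a, which encodes the Sca1 antigen that the sort selected against and had 278 FPKM in WT against 288 FPKM in Tet2 KO. Of 5 endothelial markers 1 was measured and none was past the fold. In bulk samples fewer cells of a type and less RNA per cell cannot be told apart, and the part of these other cells in the values of the 8 regulators was not tested. Tet2 itself had 6.64 FPKM in WT against 5.79 FPKM in Tet2 KO; this value covers the whole gene and does not show the deleted exon, so it is no check of the labels.

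By both levels together, the genes nearest to Pitx3 were Pfas, Wdr83os and Fn1, at distances of 0.04 to 0.05 on the log2(FPKM + 1) plane. Those nearest to Six4 were Tmem189, Pja2 and Creb3, at 0.02 to 0.03. With 2 groups this likeness rests on 2 values per gene.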

How the data were processed

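RNA of 4 libraries (2 WT, 2 Tet2 KO) had been prepared with a TruSeq RNA kit. Per the methods and the processing notes, the authors trimmed reads, mapped pairs to mm9 with TopHat 2.0.13 and ran Cuffdiff 2.2.1, and deposited 1 FPKM value per gene and group, scaled between groups. The gene annotation is not given in the sources used here, nor is strand-specific counting stated. The table also holds the log2 ratio, test statistic, p-value, q-value and call of the authors' own comparison; these columns were not used. Cuffdiff assigns fragments shared by isoforms or genes by likelihood, and depth per library is unknown.

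The values used here are 1 per group, so no test was run, and a gene was called by size: a difference of 1.5-fold or more at a pseudocount of 1 and a mean FPKM of at least 1. Starts in the table count from 0, so 1 was added. Of the table's symbols, 83.6% were in GENCODE vM1 (mm9), 99.8% of them on the same chromosome. RefSeq promoter windows are of build GRCm38.p6, and their coordinates are never set against mm9 ones. The members and lists were chosen with earlier results of these data known. Every member and listed gene may be named; of longer lists, those past the fold and the most abundant. The most extreme values and a few further genes of the lists were named after their values were seen. Nearest rows leave out genes of the sine oculis and Pitx families, and 3 genes of the partner list, and the values of 1 gene that is counted in the target list, are not reported here. Alternatives were pseudocounts of 0.1 and 0, a fold of 2, no minimum, a minimum of 5 FPKM, TPM and median centring, and, chosen after seeing the data, the target list without Myh2. Computations ran in Python 3.11.15 with scipy 1.17.1, numpy 2.4.6, matplotlib 3.10.9 and pandas 2.3.3.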

Additional observations from a re-analysis of the deposited data

How the results depend on the processing

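No paired analysis was possible because values per library were not used here, each group having a single pooled FPKM; nor could any library be left out. The direction of every regulator was the same under all 7 alternatives that kept it (a mean FPKM of at least 5 kept 4 of the 8). Most of these alternatives could not have changed it. A fold of 2 and another minimum FPKM leave each difference unchanged, and a pseudocount cannot turn a sign. Median centring shifted all genes by only 0.0044, and TPM moved the median of all genes by only 0.0031. The count of regulators past the fold and lower moved from 0 to 1, the 1 being Eya2, at a pseudocount of 0.1, without a pseudocount and under TPM, where 3.83%, 4.01% and 3.25% of all measured genes were past the fold and lower. These 3 settings all lessen the weight of the pseudocount, so they are not separate checks. The count past the fold and higher stayed at 0 under all 7. The median of the target and fast muscle list, -0.99 at a pseudocount of 1, is past a fold of 1.5 but not past a fold of 2. It was just past a fold of 2 at a pseudocount of 0.1 (-1.04), without a pseudocount (-1.05) and under TPM (-1.01). Without Myh2, left out after its values were seen, the median was -0.93. The median of the partner list turned from -0.03 to 0.0069 with no minimum FPKM, as a median close to 0 can when 5 more genes enter. Depth per library is unknown. Among the regulators, Six5 in both groups and Eya2 in Tet2 KO rest on the fewest fragments, about 165 to 197.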
